A study of Mus musculus with 8 samples.

Results

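The genes described here encode ATP-binding cassette (ABC) proteins, organic anion transporting polypeptides (the Slco genes) and the organic anion and cation transporters of the Slc22a family. They were chosen by name alone, as the array probes whose gene name began with Abca to Abcg, Slco or Slc22a and a digit, with Abcc8 left out. The rule found 80 genes with 134 probes, among 28786 gene names or identifiers with 41174 distinct probes in all. The study measured total RNA of whole pancreas from C57BL/6 mice aged 1 week on single-colour Agilent whole mouse genome arrays. Of the 8 mice, 4 were wild type (WT) and 4 were Glis3KO2, a line labelled as a knockout of Glis3, a zinc finger transcription factor. The labels do not give the deleted part of Glis3, name no other allele or treatment, and record that pups were kept with their own mothers. Litters are not named, and p-values therefore measure only the spread between these 8 samples, part of which may be technical. By its title, the series asks about Glis3 in beta cells, the islet cells that make insulin.

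ABC proteins bind and hydrolyse ATP on paired nucleotide-binding domains, and most of them use that energy to move lipids, sterols, bile salts, drugs, peptides or ions across a membrane. The Abce and Abcf proteins keep the ATP-binding domains but have no membrane part, and they act on ribosomes and translation. Slco and Slc22a proteins use no ATP and carry bile acids, hormones, prostaglandins, carnitine, organic anions or organic cations across membranes. In the pancreas the best known ABC proteins are Abcc8, the sulfonylurea receptor of beta cells, and Cftr, the chloride channel of ducts. Neither of them is among the 80 genes. Abcg1, which is, exports cholesterol and has been studied in the granule membranes of beta cells.

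Each gene was read from its brightest probe, an oligonucleotide of 60 bases. The first 30 bases, 5′ to 3′, of the probes of Slco1a6, 3 of its Slco1 neighbours and Slc22a2, all described below, are shown so that the measured transcripts can be identified. They come from the array files, with positions on mouse build mm7.
Slco1a6, chr6:142150868-142150927, minus strand: ttattttcagaacttcagggtagcacttaa
Slco1a1, chr6:141961072-141961131, minus strand: ccaagttcgagaacgatggagaactgaaaa
Slco1a5, chr6:142322465-142322524, minus strand: cctgcattcttcattctgatacttatgagg
Slco1c1, chr6:141615390-141616753, plus strand: ggtgcattcaaccacaacttaagtcttttg
Slc22a2, chr17:11345397-11345456, plus strand: gtacatttctttacttggtttctttctcca
The Slco1c1 probe covers a genomic span longer than its own 60 bases. Exon and UTR annotation on mm7 was not used here.

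On each array 31353 to 35631 probes carried the scanner software's flag for a signal well above background. Before scaling, the 75th percentile ranged from 460.4 to 694.1. The WT arrays shared a slide and the Glis3KO2 arrays shared another, scanned separately, so for every difference below the slide and the genotype cannot be told apart. Glis3 itself was too dim to be tested, with the flag on 3 WT arrays and 0 Glis3KO2 arrays; whether its probe lies in the deleted part is not given. Ins2, the main insulin gene of the mouse, had a log2 difference of -3.70 (SE 0.22, limma adjusted p = 5.36e-04). Xist, the transcript of the inactive X chromosome of females, was well above background on 1 WT array and 3 Glis3KO2 arrays. On the first principal component Glis3KO2 replicates 3 and 4 stood at 39.8 and 59.0, against -26.0 to 0.46 for the other arrays.

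One transporter gene passed the test, on signals below the measurable range in Glis3KO2, and 63 of 67 intervals lay within 1 log2 unit of 0. Testing needed the flag on 4 or more of the 8 arrays, whatever their genotype, which held for 103 of the 134 probes and 67 of the 80 genes. Of the 67 genes, 1 fell in Glis3KO2 pancreas, Slco1a6, and 0 rose (limma, Benjamini-Hochberg adjusted p under 0.05 over all tested probes). That is 1.49% of the tested members. The background was 0.256% over all 33239 tested probes and 0.292% over 23310 genes read from their brightest probe, with 0.206% lower and 0.0858% higher. A single call is too few to read against those shares, and it was lost when signals below an array's floor were raised to it, as given below. At an unadjusted p under 0.05 there were 10 genes, 14.9% against a background of 9.08%, with 4 higher (5.97% against 3.34%) and 6 lower (8.96% against 5.74%). The values of the genotypes did not overlap in 6 genes, 8.96% against 5.26%, with 1 higher (1.49% against 1.96%) and 5 lower (7.46% against 3.3%). A log2 difference above 0.5 in size was found for 4 genes, 5.97% against 6.46%. The median log2 difference of the tested members was 0.03, beside -0.01 over all tested probes. The array's spike-in control probes had a median log2 difference of -0.28, with 9 of 10 probes lower in Glis3KO2. Scaling to them raised the median of all tested probes by 0.27, to 0.26, and that of the members to 0.31. It shifts every probe of an array by the same amount, so it cannot change how the members lie against all probes. The signs of small differences below therefore hold only relative to the array's 75th percentile: 39 of the 67 were positive with it, and 59 with spike-in scaling. Over all probes 27 calls were higher and 58 lower, against 34 higher and 19 lower with spike-in scaling.

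**Figure D1:**
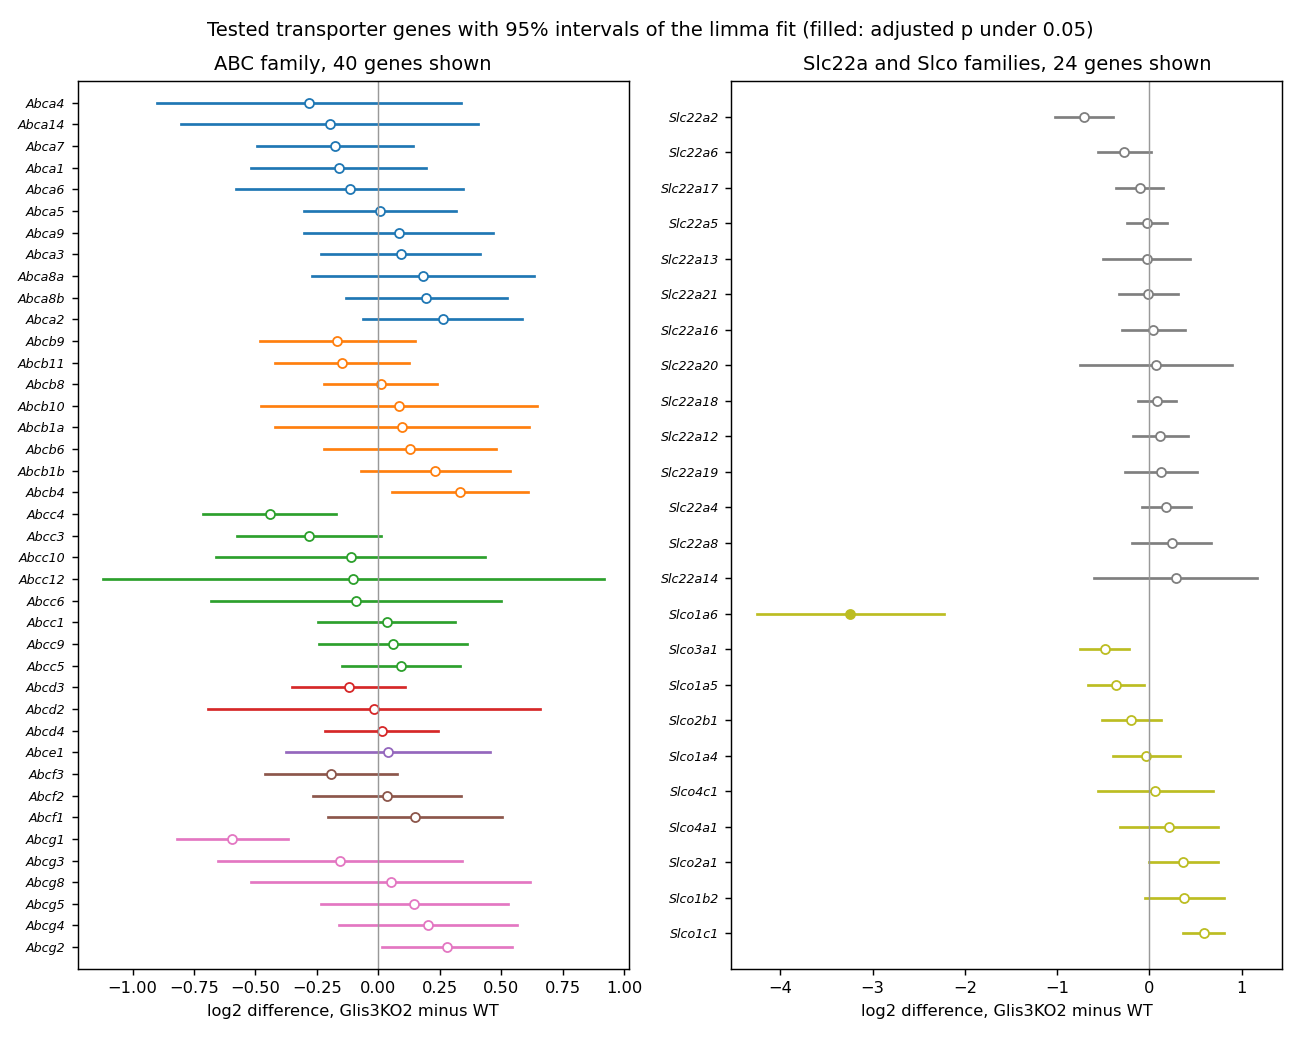
Log2 difference of tested genes (points, Glis3KO2 minus WT) with its 95% interval from the limma fit (lines), coloured by family, ABC genes on the left and Slc22a and Slco genes on the right, on axes of different range. Slco1a6, at -3.24, is the only filled point (adjusted p under 0.05), and over all 67 tested genes, a few of which are not drawn, 63 intervals lie within 1 log2 unit of 0.

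Slco1a6, an organic anion transporter of the Oatp1a subfamily, was at least 3.11-fold lower in Glis3KO2 pancreas. The limma fit gave it an adjusted p of 0.0295, from Glis3KO2 signals that all lay below the range in which the array measures. With signals below each array's floor raised to it, the log2 difference was -1.64 and the limma adjusted p 0.0746, which does not pass. In WT replicates 1 to 4 the log2 signal (here and below, with the 75th percentile of its array set to 0) was -4.11, -4.84, -3.59 and -3.92. In Glis3KO2 replicates 1 to 4 it was -6.25, -6.91, -7.98 and -8.28. The genotypes did not overlap. The order of the Glis3KO2 arrays below the floor has no meaning for Slco1a6. Slc22a3, well above background on no array, read -7.58, -7.40, -7.95 and -8.28 on Glis3KO2 replicates 1 to 4. The probe had the flag on 4 of 4 WT arrays and 0 of 4 Glis3KO2 arrays, so the fold is given as a bound. The bound sets the WT mean of -4.11 ± 0.53 (SD, n = 4) against -5.75, the mean over the Glis3KO2 arrays of the dimmest signal that still carried the flag. Taken at face value the Glis3KO2 mean was -7.36 ± 0.94 (SD, n = 4), a log2 difference of -3.24 (SE 0.45). The probe entered the test only through the WT arrays, where it was bright, so its place among the tested genes already needed a difference.

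The call for Slco1a6 also depended on single arrays. Except for the normexp value at the end, the values that follow use the Glis3KO2 signals as measured, below the floor. They therefore describe the call and not the size of the difference. It held without WT replicate 2 (adjusted p = 0.0425) or Glis3KO2 replicate 1 (adjusted p = 0.0149). It ended without WT replicate 1 (0.0904), 3 (0.132) or 4 (0.119), and without Glis3KO2 replicate 2 (0.0666), 3 (0.105) or 4 (0.0775), all limma adjusted p. It ended too without both Glis3KO2 replicates 3 and 4 (0.124), with Xist as a covariate (0.183), with the replicate number as a block (0.200) and with no filter on dim probes (0.0602). With a normexp background (offset 50), computed anew from spot and background signals, the log2 difference was -0.61 (limma adjusted p = 0.133). The offset is added to every signal and by itself shrinks the differences of dim probes.

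**Figure D2:**
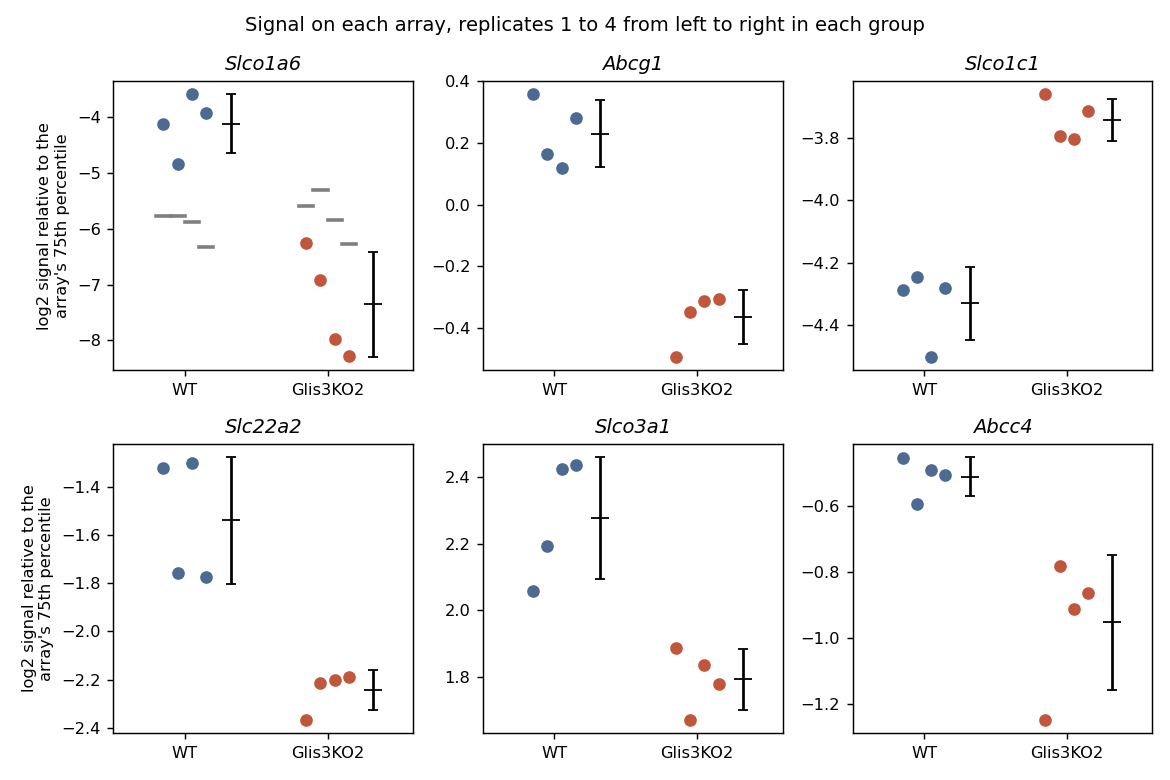
Log2 signal, with each array's 75th percentile at 0 (vertical axes, with a separate range in each panel) for 6 transporter genes on each array, WT in blue and Glis3KO2 in red, with the mean and SD of each group in black (n = 4). Grey ticks in the Slco1a6 panel mark the dimmest signal with the flag on each array, and all 4 Glis3KO2 points lie below their ticks. The 6 genes drawn are the tested members whose genotypes did not overlap, so the lack of overlap in every panel follows from the choice. They are 8.96% of the 67 tested members, against 5.26% of all tested genes. Slco1a6 alone passed the test over all probes, with the signals below the ticks as measured.

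Slco1a6 lies in a run of Slco1 genes on chromosome 6, and no tested neighbour passed the threshold. In RefSeq's annotation of GRCm38.p6 the protein-coding order is Slco1c1, Slco1b2, Gm5724, Slco1a4, Slco1a1, Gm6614, Slco1a6 and Slco1a5, and Iapp, the amylin gene of beta cells, lies within the bounds of Slco1a5. Abcc9 and its channel partner Kcnj8 close the stretch of 17 genes, of which 14 had a probe and 12 were tested. Slco1a6 was the one gene of the 12 that passed the threshold.

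Slco1c1, at the far end of the run, transports thyroxine and is known from brain capillaries. Its log2 signal was -4.29, -4.25, -4.50 and -4.28 in WT and -3.66, -3.79, -3.80 and -3.71 in Glis3KO2, replicates 1 to 4. Every Glis3KO2 array was above every WT array, with a log2 difference of 0.59 (SE 0.10, 95% interval 0.37 to 0.81). The difference was not past the threshold (limma adjusted p = 0.0746), and with a normexp background it was 0.17. The normexp setting adds an offset of 50 to every signal, which by itself shrinks the differences of dim probes such as this.

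Slco1a5 and Slco1a1, on either side of Slco1a6, are members of the same Oatp1a subfamily. Gm6614, which had no named probe, lies between Slco1a1 and Slco1a6. Slco1a5 had log2 signals of -3.55, -3.70, -3.52 and -3.88 in WT and -4.06, -3.86, -4.30 and -3.87 in Glis3KO2, replicates 1 to 4. The groups overlapped slightly, since WT replicate 4 lay below 2 Glis3KO2 arrays. The log2 difference was -0.36 (SE 0.14, limma adjusted p = 0.481), and a dimmer probe gave -0.58 (adjusted p = 0.483).

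The brighter Slco1a1 probe, with the flag on 2 WT arrays and 0 Glis3KO2 arrays, was too dim to be tested. Its signals were -5.94, -6.73, -5.60 and -5.50 in WT and -6.82, -7.58, -8.10 and -7.60 in Glis3KO2. They did not overlap, but most of them lay below their array's floor, where their order has no meaning. No fold is given, because its WT mean of -5.94 was below the Glis3KO2 floor of -5.75. The other Slco1a1 probe had the flag on 0 arrays.

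Slco1b2, the liver-type transporter of bile acids and bilirubin, had a log2 difference of 0.38 (SE 0.19, limma adjusted p = 0.613). Slco1a4, known from liver and the blood-brain barrier, had -0.03 (SE 0.16, adjusted p = 0.979). Iapp, next in order, had 0.45 (SE 0.27, adjusted p = 0.688), and its highest value was on a Glis3KO2 array. The intervals of Slco1a4, -0.40 to 0.34, and Slco1b2, -0.05 to 0.81, leave out a decrease as large as the 3.11-fold bound given for Slco1a6. At the end of the stretch Abcc9, the sulfonylurea receptor of vascular potassium channels, had 0.06 (SE 0.13) and Kcnj8 had -0.06 (SE 0.13).

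**Figure D3:**
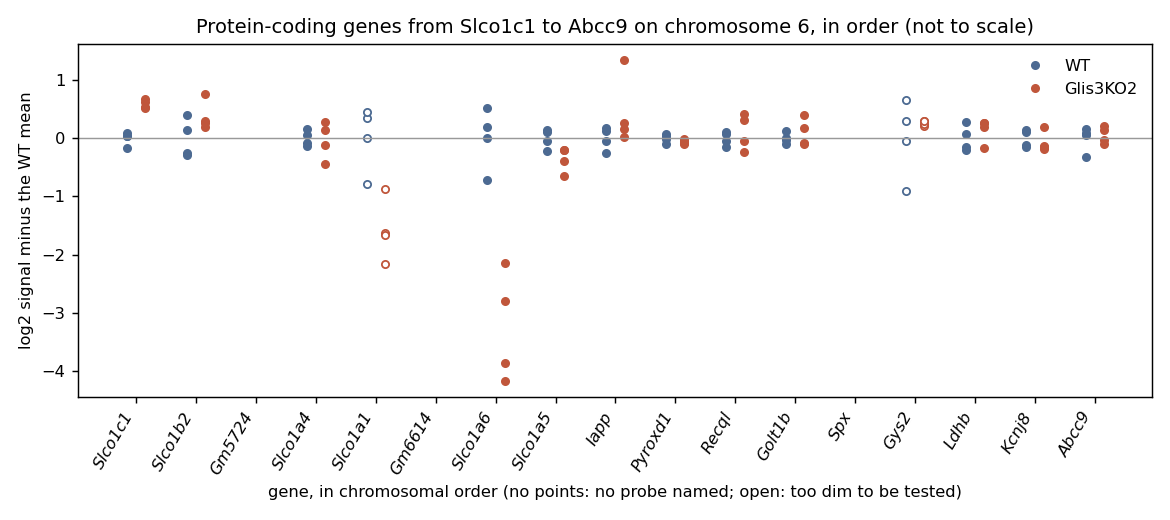
Log2 signal minus the WT mean of the gene (vertical axis) on each WT array (blue) and Glis3KO2 array (red), for protein-coding genes from Slco1c1 to Abcc9 in chromosomal order, not to scale. Open points mark genes too dim to be tested, and genes without points had no named probe. The Glis3KO2 points of Slco1a6 and Slco1a1 lie below 0 but come from probes with the flag on 0 Glis3KO2 arrays, so their depth has no order, and Iapp has 1 high Glis3KO2 value.

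The 250 bases before the annotated start of the genes at the ends of this contrast, Slco1a6 and Slco1c1, are given from RefSeq (GRCm38.p6), on the strand of the gene. They were searched on both strands for TGGGGGG (reverse complement CCCCCCA), part of the G-rich site bound by Glis proteins. Capitals mark a match.
Slco1a6, chr6:142186150-142186399, minus strand: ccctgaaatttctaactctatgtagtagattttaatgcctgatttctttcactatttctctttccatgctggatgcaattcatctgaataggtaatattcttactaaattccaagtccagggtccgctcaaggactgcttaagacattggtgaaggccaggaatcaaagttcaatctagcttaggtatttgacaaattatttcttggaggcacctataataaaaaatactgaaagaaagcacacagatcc
Slco1c1, chr6:141524104-141524353, plus strand: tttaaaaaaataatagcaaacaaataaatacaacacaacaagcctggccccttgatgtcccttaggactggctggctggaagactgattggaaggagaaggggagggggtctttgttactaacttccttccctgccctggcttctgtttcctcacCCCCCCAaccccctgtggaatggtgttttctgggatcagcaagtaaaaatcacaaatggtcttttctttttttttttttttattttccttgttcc
Slco1c1 had 1 match, starting 95 bases before the start site, and Slco1a6 had 0. Over all 32851 windows of that length 7.67% held the motif, and among the 75 windows of 64 members 2 did, those of Slco1c1 and Abca9. The longer form TGGGGGGT, which contains the shorter, was in 1.36% of all windows and in 0 of the members' windows. These are matches of letters and not measured binding.

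Among the other Slco genes, Slco3a1 had the smallest p. Slco3a1 carries prostaglandins and thyroxine and is widely expressed. Its log2 signal was 2.06, 2.19, 2.42 and 2.44 in WT, above the 1.89, 1.67, 1.83 and 1.78 of Glis3KO2, replicates 1 to 4. All Glis3KO2 arrays were below all WT arrays, with a log2 difference of -0.48 (SE 0.12), which was not past the threshold (limma adjusted p = 0.230) and was -0.21 with spike-in scaling. The prostaglandin transporter Slco2a1 had 0.37 (SE 0.16, adjusted p = 0.557), and its dimmer probe 0.11. Slco2b1, Slco4a1 and Slco4c1 had log2 differences of -0.19, 0.21 and 0.06. Slco5a1, Slco6b1, Slco6c1 and Slco6d1 were not well above background on any array by their brightest probe. In all, 15 Slco genes had probes, 10 were tested, 1 fell, and the median log2 difference was 0.02, with 5 positive and 5 negative.

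None of the 15 tested Slc22a genes passed the threshold, and their differences had both signs, 9 positive and 6 negative, with a median of 0.08. Slc22a2 (Oct2), the organic cation transporter of kidney tubules, had the largest difference of the family. WT replicates 1 to 4 had log2 signals of -1.32, -1.76, -1.30 and -1.78, and Glis3KO2 replicates 1 to 4 had -2.37, -2.22, -2.20 and -2.19. The genotypes did not overlap, and the WT arrays formed a higher and a lower pair. The log2 difference was -0.71 (SE 0.14, 95% interval -1.02 to -0.39, limma adjusted p = 0.124), and -0.43 with spike-in scaling. Slc22a3 (Oct3), a cation transporter of monoamines, was not well above background on any array.

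The other Slc22a genes differed less. The carnitine transporter Slc22a5 had a log2 difference of -0.03 (95% interval -0.24 to 0.19), and its relative Slc22a4, which carries ergothioneine, had 0.19. The kidney anion transporters Slc22a6 (Oat1) and Slc22a8 (Oat3) had -0.27 and 0.24. Slc22a12, the urate transporter, had 0.12, Slc22a17, a receptor for lipocalin 2, had -0.10, and Slc22a18, an imprinted gene, had 0.08. Slc22a7 was well above background on 1 WT and 2 Glis3KO2 arrays and was not tested. A further 5 genes of the family carry older names on the array and so lay outside the rule. Of these, Slc22a23 had -0.08, and Slc22a22, Slc22a26, Slc22a29 and Slc22a30 had -0.15, 0.33, -0.13 and -0.08. None of the 5 passed the threshold.

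Of the ABC genes, 42 were tested and 0 passed the threshold over all probes. Abcg1 came nearest. WT replicates 1 to 4 had log2 signals of 0.36, 0.16, 0.12 and 0.28, and Glis3KO2 replicates 1 to 4 had -0.49, -0.35, -0.31 and -0.31. Every Glis3KO2 array was below every WT array, and the spread within each group was small beside the gap, the WT mean being 0.23 ± 0.11 (SD, n = 4) and the Glis3KO2 mean -0.36 ± 0.09 (SD, n = 4). The log2 difference was -0.59 (SE 0.10, 95% interval -0.82 to -0.37), a ratio of 1.51, with limma adjusted p = 0.0746. Under 2 alternatives Abcg1 did pass, a normexp background (-0.51, adjusted p = 0.0335) and an eBayes step with a trend and robust variances (adjusted p = 0.0180). With spike-in scaling its log2 difference was -0.32 (adjusted p = 0.456).

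The other sterol and drug half-transporters of the Abcg family did not share the sign of Abcg1 throughout. Abcg2, a multidrug exporter used as a marker of side population cells, had a log2 difference of 0.28 (SE 0.12, limma adjusted p = 0.529). Abcg5 and Abcg8, which pair to export plant sterols, had 0.15 and 0.05, Abcg4 had 0.20 and Abcg3 had -0.16. Abcg genes were 6 of 6 tested, with 4 positive differences and a median of 0.10.

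The 11 tested Abca genes, lipid transporters, had log2 differences between -0.28 and 0.26, a median of 0.01 and 0 genes at an unadjusted p under 0.05. Abca1, which loads cholesterol onto apolipoprotein A-I and with Abcg1 makes up the main route of cellular cholesterol efflux, had -0.16 (SE 0.16, 95% interval -0.52 to 0.20, limma adjusted p = 0.818). Abca2, a lysosomal sterol transporter, had 0.26, Abca3, the surfactant lipid transporter of lung, 0.09, Abca5 0.01 and Abca7 -0.18. Abca13, Abca15 and Abca16 were not well above background on any array, and Abca17 on 1 array of each genotype.

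The 9 tested Abcb genes had a median log2 difference of 0.08. Among the exporters, Abcb4, which moves phosphatidylcholine into bile, had 0.04, 0.17, 0.34 and 0.15 in WT and 0.68, 0.46, 0.27 and 0.62 in Glis3KO2 (log2 signal, replicates 1 to 4). Only Glis3KO2 replicate 3 lay within the WT range. The log2 difference was 0.33 (SE 0.12, limma adjusted p = 0.466). The P-glycoprotein genes Abcb1a and Abcb1b had log2 differences of 0.10 and 0.23, and the bile salt export pump gene Abcb11 had -0.15. The 3 tested Abcb1b probes gave 0.23, 0.30 and, for the dimmest, -0.29. Among the half-transporters of mitochondria and other organelles, Abcb6, Abcb8 and Abcb10 had 0.13, 0.01 and 0.08, and the lysosomal peptide transporter Abcb9 had -0.17.

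The 8 tested Abcc genes had a median log2 difference of -0.10. Abcc4, which exports cyclic nucleotides and prostaglandins, had log2 signals of -0.45, -0.59, -0.49 and -0.50 in WT and -1.25, -0.78, -0.91 and -0.86 in Glis3KO2, replicates 1 to 4. The groups did not overlap, and Glis3KO2 replicate 1 was the lowest. The log2 difference was -0.44 (SE 0.12, limma adjusted p = 0.297) and -0.17 with spike-in scaling, but a dimmer Abcc4 probe gave -0.08 (adjusted p = 0.930), so the probes of this gene disagree in size. The multidrug resistance proteins Abcc1, Abcc3 and Abcc5 had 0.03, -0.28 and 0.09. Abcc2, the exporter of conjugates into bile, was well above background on 0 WT and 2 Glis3KO2 arrays and was not tested.

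No peroxisomal or ribosomal member passed the threshold. Abcd3, a transporter of the peroxisomal membrane, had a log2 difference of -0.12 (95% interval -0.35 to 0.11). Abcd2 and Abcd4 had -0.02 and 0.01. Abce1, which splits ribosomes for recycling, had 0.04, and Abcf1, Abcf2 and Abcf3 had 0.15, 0.04 and -0.19. All Abcd, Abce and Abcf genes on the array were tested, and 0 had an unadjusted p under 0.05.

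Where a gene had several tested probes, 28 genes in all, they differed in sign in 8, and in 0 of these were probes of both signs at an unadjusted p under 0.05.

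A list of 41 further genes, chosen for their tie to these transporters, held other bile acid, drug and nucleoside carriers, channel partners, and regulators and partners of cholesterol export. It had 40 genes on the array and 35 tested, of which 0 passed the threshold, with 2 higher and 3 lower at an unadjusted p under 0.05. These are 14.3% of the 35, with 5.71% higher and 8.57% lower, against 9.08%, 3.34% and 5.74% over all genes. The genes named next were picked after their values were seen. The 3 lower ones were Abcc8 (log2 difference -0.61, SE 0.23) and Kcnj11 (-0.63, SE 0.16), the subunits of the beta cell potassium channel, and Apoe (-0.53, SE 0.16), an acceptor of exported cholesterol. The 2 higher ones were the bile acid receptor Nr1h4 (0.33, SE 0.13) and the xenobiotic receptor Ahr (0.31, SE 0.13). The oxysterol receptors Nr1h3 and Nr1h2, which induce Abca1 and Abcg1, had 0.03 and 0.06, and Cftr had -0.01. Pdzk1, a scaffold that binds transporters of several families, had 1.32 (SE 0.59, limma adjusted p = 0.557), with -2.02 on Glis3KO2 replicate 3 against -5.13 to -4.52 on the other 3.

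Whole pancreas mixes cell types, and fewer cells of a type and less RNA per cell cannot be told apart in such samples. Of 8 beta cell markers 5 fell, and Iapp (log2 difference 0.45), Pdx1 (-0.06) and Mafa (-0.75) did not pass. The log2 of their summed signal was 9.49 to 9.80 in WT and 7.55 to 8.60 in Glis3KO2, without overlap. Such a sum, here and below, is set mostly by the brightest genes of a list, as by Ins2 here. The 5 endothelial markers were at 4.31 to 4.56 in WT and 3.93 to 4.21 in Glis3KO2, with 5 of 5 negative differences and 0 past the threshold. The 3 tested hepatocyte markers were at 0.25 to 1.07 in WT and 1.26 to 1.44 in Glis3KO2, again without overlap and with 0 past the threshold. Ttr (log2 difference 0.50) is among these 3 and is also on the alpha cell list. The alpha cell list (4 genes, 1 fell) and the delta cell list (2 genes, 0 past the threshold) were also lower in sum without overlap, at 7.44 to 7.62 against 6.72 to 7.44 for alpha cells and 4.97 to 5.29 against 4.29 to 4.82 for delta cells. The summed markers of acinar cells, ducts, mesenchyme, macrophages, erythroid cells, nerve and glia and adipocytes overlapped between genotypes, and no listed marker on the array was below background on all 8 arrays. The beta, alpha, delta and endothelial sums were lower in Glis3KO2, as were Slco1a6, Abcg1, Slc22a2, Slco3a1 and Abcc4, and the hepatocyte sum was higher, as was Slco1c1. The part of these cell types in those differences was not tested.

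**Figure D4:**
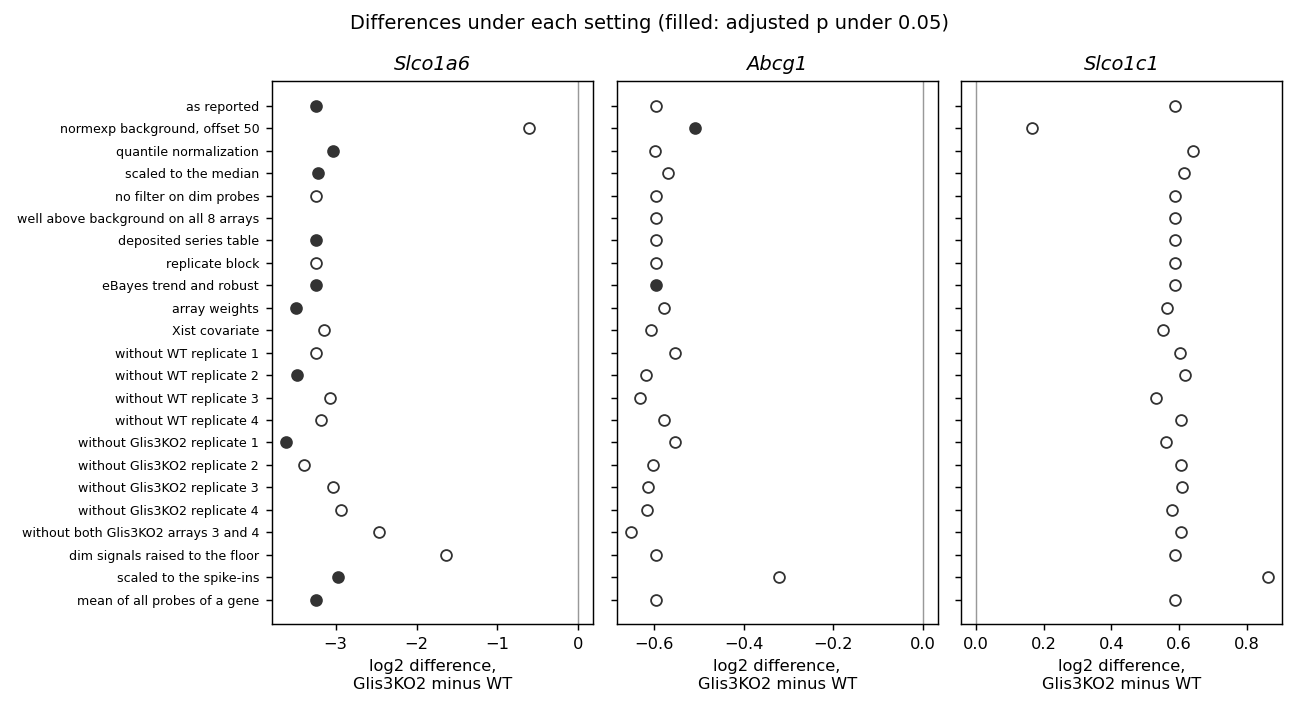
Log2 difference (Glis3KO2 minus WT, horizontal axes of different range) of Slco1a6, Abcg1 and Slco1c1 under each setting, with filled points where the adjusted p was under 0.05. Slco1a6 lies between -3.61 and -0.61, Abcg1 between -0.65 and -0.32 and Slco1c1 between 0.17 and 0.86, and Slco1a6 has no point where every array had to be well above background. The smallest differences of Slco1a6 and Slco1c1 come from the normexp background, whose offset of 50 shrinks the differences of dim probes.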

How the data were processed

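Total RNA of 8 pancreas samples was labelled with Cy3, per the labels' protocols, and each was hybridised to 1 array. The deposited values are spot intensity values from Agilent Feature Extraction 9.5.3.1, per the file headers (version 9.5 in the submitters' processing notes), with spatial and multiplicative detrending switched on and no scaling between arrays. The authors' deposited series table held the same 45018 values on every array. The values of dim spots are sensitive to such background steps.

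Values were put on a log2 scale and centred per array on the 75th percentile of the 43379 non-control spots, outlier spots were left out (none of a transporter probe), and spots of a probe were averaged. Genotypes were compared with limma 3.58.1 in R 4.3.3 (2-sided, genotype as the sole term, Benjamini-Hochberg over all tested probes, threshold 0.05), tested on simulated data. No spot was saturated. Figures were drawn with Python 3.11.15. Of the 134 probes 107 matched RefSeq by accession, all under the same symbol. Other backgrounds, scalings, filters, covariates and left-out arrays were tried.

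The members, lists and tests were chosen with earlier results of these data known. Genes were named if past the threshold, among the 8 smallest unadjusted p under 0.05 in each direction, with a bound, or in a fixed set of well-known transporters. Other members are given with their family, chosen after their values were seen. A few members are not reported here by name, though counts over the members include them.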

Additional observations from a re-analysis of the deposited data

Results flagged for a closer look

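In 4 of 66 groups of 4 arrays examined for the named genes, 1 array lay far from the other 3, and chance alone flags about 1 group in 20. In log2 signal, these were WT replicate 3 for Abca3 (0.23, against -0.27 to -0.24) and for Slco1c1 (-4.50, against -4.29 to -4.25). They were also WT replicate 2 for Abcf1 (3.48, against 3.11 to 3.15) and Glis3KO2 replicate 1 for Slc22a2 (-2.37, against -2.22 to -2.19).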

How the results depend on the processing

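The 1 call among the transporters was Slco1a6. It was the called gene with quantile normalization, scaling to the median, the deposited series table, array weights, spike-in scaling, and when a gene's probes were averaged. The deposited table held the same values and Slco1a6 has 1 probe, so that table and the averaging leave its signals unchanged by construction. The count was 0 with dim signals raised to the floor, without a filter on dim probes, with probes well above background on all 8 arrays, with the replicate block, with Xist as a covariate and without Glis3KO2 replicates 3 and 4, 2 (Slco1a6 and Abcg1) with trend and robust eBayes, and 0 to 1 when 1 array was left out. With a normexp background it was 1, Abcg1 in place of Slco1a6. The requirement of all 8 arrays removes Slco1a6 by construction, and raising dim signals shrinks its difference by construction. The normexp offset of 50, added to every signal, also shrinks the differences of dim probes by construction. The other causes were not tested. Over all probes the 85 calls became 51 without a filter, 15 with the replicate block, 142 with trend and robust eBayes, 27 with Xist as a covariate, 11 without Glis3KO2 replicates 3 and 4, 53 with spike-in scaling, and 35 to 96 with 1 array left out. The members' median log2 difference of 0.03 was -0.027 with a normexp background, 0.308 with spike-in scaling and -0.030 to 0.055 with 1 array left out. The fold for Slco1a6 was 9.46 with the dim probe's own signal in place of the floor. Spike-in scaling and the raised floor were chosen after seeing the data. Among 35 named genes and 22 settings, 50 values of 17 genes changed sign, and 0 of these were past the threshold. Correlations of same-numbered deviations were 0.13, 0.09, 0.24 and -0.04, against -0.20 to 0.14 for differently numbered ones. These values do not settle whether replicate numbers pair the samples. Signal near background limits Slco1a6, Slco1a1, Abcc2 and Slc22a7.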
